A study of Mus musculus with 15 samples.

Results

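The tubules compared here are the microdissected PTS2 proximal tubules that carry the number 4 and those that carry the number 1. They were chosen by the numbers in the library names alone, as m1_PTS2_4, m2_PTS2_4 and m3_PTS2_4 against m1_PTS2_1, m2_PTS2_1 and m3_PTS2_1, and are 6 of the 15 libraries of the study. RNA-Seq was run on 12 single PTS2 tubules, numbered 1 to 4 in each of the 3 sets m1, m2 and m3, and on 3 whole kidneys. All came from kidneys of male C57BL/6 mice aged 2 months, with no treatment or genotype named, and cDNA was made with a kit for very low RNA input. The 6 tubules numbered 2 and 3 serve as intermediate steps. The labels state neither what the number nor what the letter m stands for, so position along the tubule is only a candidate meaning of the number. They also do not state whether the tubules of a set came from 1 animal or the sets from separate animals, so p-values measure only the spread between these libraries.

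The proximal tubule reclaims most of the filtered salt, bicarbonate, glucose, amino acids and phosphate, and secretes drugs and waste anions. Along its length it is divided into an early S1, a middle S2 and a late S3 segment, which differ in their transporters. Sodium-glucose cotransport of high capacity and bicarbonate reabsorption belong mainly to the early tubule, secretion of organic anions is strongest in S2, and S3 carries glutamine synthetase, peptide transport and its own set of Slc22 and amino acid transporters. In mice many S3 genes also depend on sex hormones.

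Expression was given as TPM, in which a gene's reads are divided by its length and each library is brought to 1 total. Differences were computed on log2(TPM + 1), which understates the change of genes with low values. TPM keep no depth, so no counting error can be given, and the 3 libraries per number limit the precision. Of 3 general measures of the libraries, 0 passed a test of a slope over the number. The number of genes at 1 TPM or more had a slope of -33.97 genes per number (exact permutation within sets, two-sided, p = 0.385, adjusted p = 0.578 over 3 measures). The share of TPM in the 10 most abundant genes had a slope of 0.0625 percentage points (p = 0.752), and that in mitochondrially encoded genes 0.17 points (p = 0.220, adjusted p = 0.578), by the same exact test. Library m3_PTS2_3 stood apart: 5 defining markers of the thick ascending limb summed to 1441 TPM in it, against 2569 TPM in whole kidney and 4.75 to 55.8 TPM in the other 11 tubules. The 55.8 TPM was in m1_PTS2_4. In a mixed sample, fewer cells of a type and less RNA per cell cannot be told apart.

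The segment label was checked first. Slc5a2, Slc5a12 and Gatm, which mark S1, summed to 2.21 to 9.05 TPM in tubules numbered 1 and 3.18 to 6.09 TPM in those numbered 4, against 1921 TPM in whole kidney. Slc7a13, a transporter of acidic amino acids taken as an S3 marker, was above its whole kidney mean of 773 TPM in every PTS2 library. Slc22a8, an S2 marker, was below its whole kidney mean of 272 TPM in every PTS2 library. The 8 genes listed for S2 summed to means of 9143 TPM in number 1 and 13858 TPM in number 4, against 12950 TPM in whole kidney. The 20 genes listed for S3 summed to 27484 and 22739 TPM, against 12217 TPM. The tubules thus held S3 markers above whole kidney, S2 markers without a clear excess over it, and almost none of these 3 S1 genes.

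Slc22a8, the basolateral organic anion transporter OAT3 and an S2 marker, stood at 62.3, 29.4 and 24.7 TPM in the tubules numbered 1 of sets m1, m2 and m3, and at 161, 116 and 105 TPM in those numbered 4. Each number 4 library was above each number 1 library. The means were 38.8 ± 20.5 and 127 ± 29.7 TPM (SD, n = 3 each), and number 4 exceeded number 1 by 1.78 ± 0.23 log2 units (SE, limma adjusted p = 0.00263). Slc34a1, the brush border phosphate transporter NaPi-IIa, was at 3409, 2526 and 2397 TPM in number 1 and 4881, 4487 and 5082 TPM in number 4. Here too the libraries did not overlap, and the log2 difference was 0.81 (limma adjusted p = 0.00499). Cyp7b1, an oxysterol hydroxylase taken as an S3 marker, ran the other way, from 625, 784 and 667 TPM to 96.8, 265 and 260 TPM. The highest number 4 library was below the lowest number 1 library, and the difference was -1.87 ± 0.20 log2 units (SE, limma adjusted p = 0.00174). Slc7a13 was lower by a smaller amount, at 1822, 2123 and 2141 TPM in number 1 and 1367, 1737 and 1836 TPM in number 4. It was lower within each set, but the libraries overlapped between numbers (log2 difference -0.31, limma adjusted p = 0.0275). Its call was lost in 17 of 27 alternative settings, so of the 4 markers it is the least firm.

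**Figure D1:**
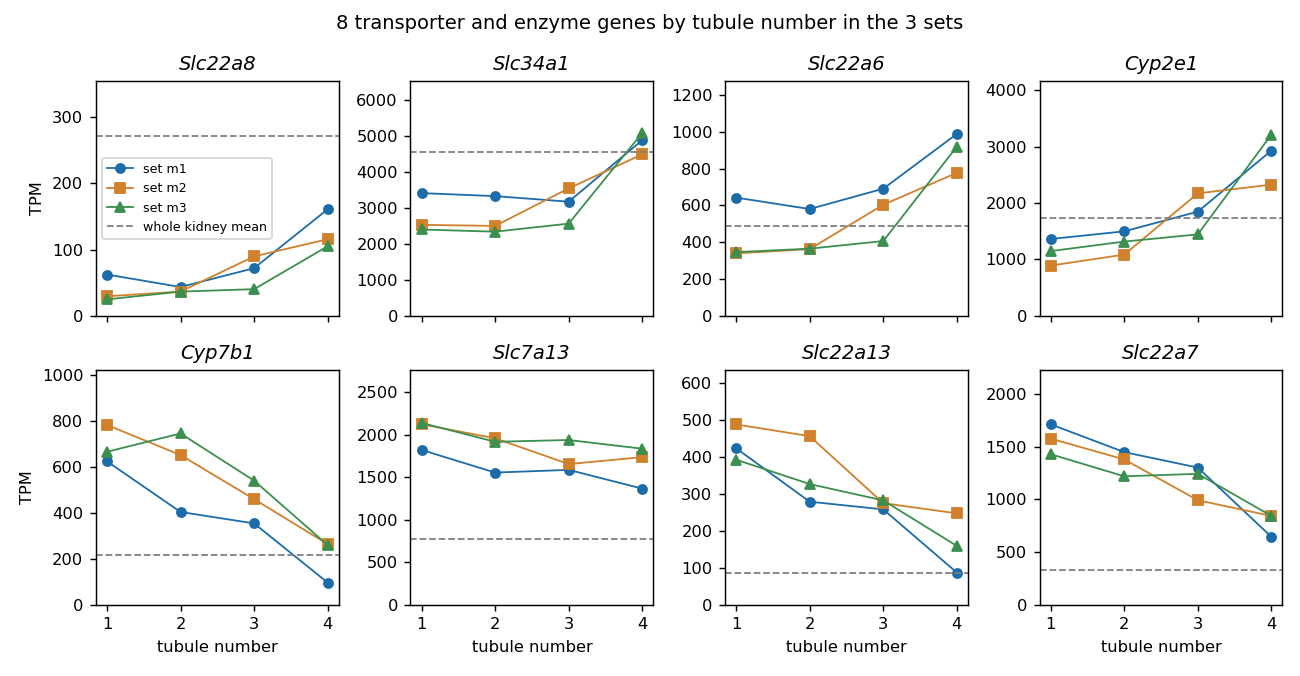
TPM of 8 transporter and enzyme genes (linear axes) against tubule number in sets m1, m2 and m3, with the whole kidney mean as a dashed line. The upper 4 genes were higher and the lower 4 lower in number 4; Slc22a8 runs from 38.8 to 127 TPM and Cyp7b1 from 692 to 207 TPM on average, and Slc7a13 is the only one of the 8 whose libraries overlap between numbers 1 and 4.

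Promoters are shown for 2 genes higher and 2 lower in number 4, because the members moved in 2 groups: Slc22a8 and the oxidase gene Cyp2e1, and the anion exchanger gene Slc22a13 and the lipoprotein gene Apob. The 300 bases around the RefSeq start site (250 before, 50 after; GRCm38.p6, read 5′ to 3′ on the gene's strand) were searched on both strands for the letters TATAAA, the core of a TATA box, a motif chosen after the data were examined, and matches are in capitals.
Slc22a8 chr19:8592932-8593231 (+): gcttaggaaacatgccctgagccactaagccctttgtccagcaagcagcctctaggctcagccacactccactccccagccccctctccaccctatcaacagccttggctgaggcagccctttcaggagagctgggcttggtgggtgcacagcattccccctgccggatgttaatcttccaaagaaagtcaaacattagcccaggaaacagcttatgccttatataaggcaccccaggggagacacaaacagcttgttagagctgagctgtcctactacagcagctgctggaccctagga
Cyp2e1 chr7:140763569-140763868 (+): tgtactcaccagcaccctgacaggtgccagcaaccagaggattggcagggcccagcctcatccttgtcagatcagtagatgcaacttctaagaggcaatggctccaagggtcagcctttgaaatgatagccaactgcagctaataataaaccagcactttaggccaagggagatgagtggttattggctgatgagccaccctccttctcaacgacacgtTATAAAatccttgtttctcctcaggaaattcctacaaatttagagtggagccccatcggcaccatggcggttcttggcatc
Slc22a13 chr9:119209056-119209355 (-): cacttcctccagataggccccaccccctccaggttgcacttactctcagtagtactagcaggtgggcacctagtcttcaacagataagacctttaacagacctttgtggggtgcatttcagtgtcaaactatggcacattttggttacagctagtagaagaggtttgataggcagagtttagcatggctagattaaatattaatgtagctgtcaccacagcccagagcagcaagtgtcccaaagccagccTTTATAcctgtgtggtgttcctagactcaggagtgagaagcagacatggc
Apob chr12:7977427-7977726 (+): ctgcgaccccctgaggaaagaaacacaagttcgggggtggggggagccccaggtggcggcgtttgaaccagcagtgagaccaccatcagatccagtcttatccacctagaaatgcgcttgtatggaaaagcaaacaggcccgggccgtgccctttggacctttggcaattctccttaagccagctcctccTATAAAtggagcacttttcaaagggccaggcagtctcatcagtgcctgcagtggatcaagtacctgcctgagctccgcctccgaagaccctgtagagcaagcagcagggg
The letters lay 31 bases before the start of Cyp2e1 and 60 bases before that of Apob, at base 1 of the Slc22a13 transcript on the opposite strand, and not in the Slc22a8 window. That window does read tatataag, a close variant that the search did not cover, so whether Slc22a8 has a TATA box was not tested. The letters TATAAA were found in 23 of 144 windows of genes higher in number 4 (16.0%) and 26 of 262 windows of genes lower in number 4 (9.92%). Among the windows of tested genes they were in 565 of 8398 (6.73%), and among all 27025 windows in 14.2%. A core of the sites bound by the hepatocyte nuclear factor HNF4, CAAAGTCCA, was in 1 of 144 windows of higher genes (0.694%). It was in 2 of 262 windows of lower genes (0.763%) and 33 of 8398 of tested genes (0.393%), so the first 2 shares rest on very few windows. These are matches of letters, not shown binding sites. Hnf4a itself did not pass the threshold, with a log2 difference of -0.07.

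Across the 11300 genes whose mean over the 12 PTS2 libraries reached 1 TPM, 538 differed between numbers 4 and 1 at a limma adjusted p under 0.05, which is 4.76% of genes tested. Of these, 191 were higher (1.69%) and 347 lower (3.07%) in number 4. With median-of-ratios rescaling the split was 260 higher and 312 lower. A log2 difference beyond 1 was seen for 50 of the higher and 113 of the lower genes. All 538 had the same sign in all 3 sets, and for 144 of the higher and 299 of the lower genes the libraries did not overlap. Over all tested genes, 18.3% did not overlap, 5.16% higher and 13.1% lower, and the median log2 difference was -0.05. The share of genes past the threshold grew with abundance, from 2.27% at 1 to 10 TPM to 25.5% at 1000 TPM or more.

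The count depended on the pairing of libraries by set and on single libraries. Without the set as a block 67 genes passed, and with the 6 libraries of numbers 1 and 4 alone 99. Leaving out set m1, m2 or m3 left 90, 79 and 1 gene, and the 1 gene was not among the 538. Without single libraries the count fell to 231 (m1_PTS2_1), 249 (m1_PTS2_4), 192 (m2_PTS2_1), 316 (m2_PTS2_4) or 313 (m3_PTS2_1), and stayed within 1.5 times of 538 for the other 7. Without both m3_PTS2_3 and m1_PTS2_4, a setting chosen after seeing the data, 156 genes passed, 155 of them among the 538. The calls for single genes below carry these limits: every one of them is lost without set m3. In that setting 533 of the 538 had an unadjusted limma p under 0.05, as did 1697 of all 11300 genes. The 538 were chosen with the same m1 and m2 libraries, which fixes the 533 in part.

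**Figure D2:**
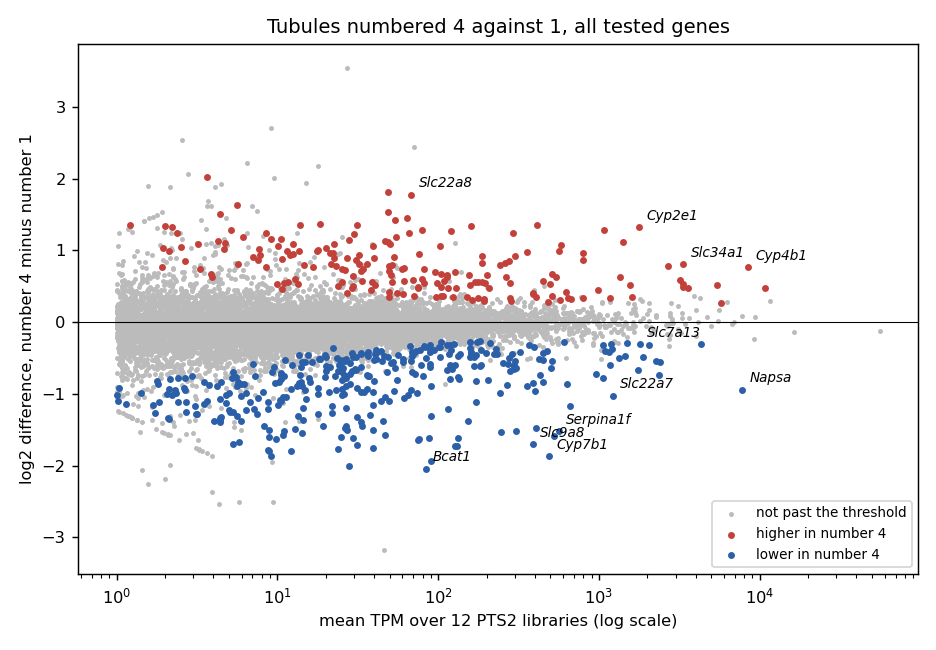
Log2 difference of number 4 minus number 1 against mean TPM over the 12 PTS2 libraries (log axis), 1 point per tested gene. Red points are the 191 genes higher and blue points the 347 genes lower in number 4 at a limma adjusted p under 0.05, and several of the most abundant genes are among them.

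Among the genes with the largest differences toward number 4 were enzymes of small-molecule metabolism. Cyp2e1, which oxidises ethanol and other small solvents (chr7:140763739-140774987), rose from 1361, 890 and 1147 TPM to 2931, 2326 and 3216 TPM. These groups lay well apart, with a log2 difference of 1.33 (limma adjusted p = 0.00253). Cyp4a12a, an androgen-dependent fatty acid hydroxylase, went from 27.4 ± 21.4 to 85.5 ± 27.1 TPM (SD, n = 3), a log2 difference of 1.81 (limma adjusted p = 0.0148), but its call was lost in 12 of 27 alternatives and it has the near-identical copy Cyp4a12b. Cyp2a5, which hydroxylates coumarin and also has a close copy in Cyp2a4, had a log2 difference of 1.28 (limma adjusted p = 0.0268), lost in 16 of 27. Slc51a, 1 subunit of the bile acid and steroid exporter OST, differed by 1.43, and Enpp6, a phosphodiesterase of choline lipids, by 1.45. Nat8f5, Tceal8, Ctxn3 and Sectm1b had log2 differences of 1.33, 1.35, 1.36 and 1.29. Aqp3, a water and glycerol channel, was at 15.9, 7.31 and 11.6 TPM in number 1 and 43.1, 21.4 and 29.7 TPM in number 4 (log2 difference 1.36, limma adjusted p = 0.00543). Aqp3 is also abundant in principal cells of the collecting duct, whose 4 defining markers summed to 1.73 to 5.05 TPM in number 1, 3.82 to 15.6 TPM in number 4 and 690 TPM in whole kidney. The part of those cells in the Aqp3 difference was not tested.

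Lipid and amino acid genes led in the other direction. Apob, the structural protein of lipoproteins (chr12:7977648-8016835), fell from 36.6, 65.4 and 48.5 TPM in number 1 to 4.9, 19.3 and 14.9 TPM in number 4. All number 4 libraries were below all number 1 libraries, and the difference was -2.01 ± 0.18 log2 units (SE, limma adjusted p = 0.00174). Bcat1, the cytosolic transaminase of branched-chain amino acids, had the largest fall of the named genes, from 125, 153 and 106 TPM to 20.1, 44.2 and 30.2 TPM (log2 difference -2.04, limma adjusted p = 0.00263). Arg2, mitochondrial arginase, fell by 1.79 on the log2 scale, Akr1c18, a progesterone-inactivating reductase, by 1.73, and Slco4c1, a basolateral carrier of organic anions and hormones, by 1.76. Myo5a, an actin motor for vesicles, fell by 1.73. The secreted chaperone Clu fell by 1.75, the matrix proteoglycan Fmod by 1.80, and Chrdl1, an antagonist of bone morphogenetic proteins, by 1.87. Mpped1 fell by 1.78.

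**Figure D3:**
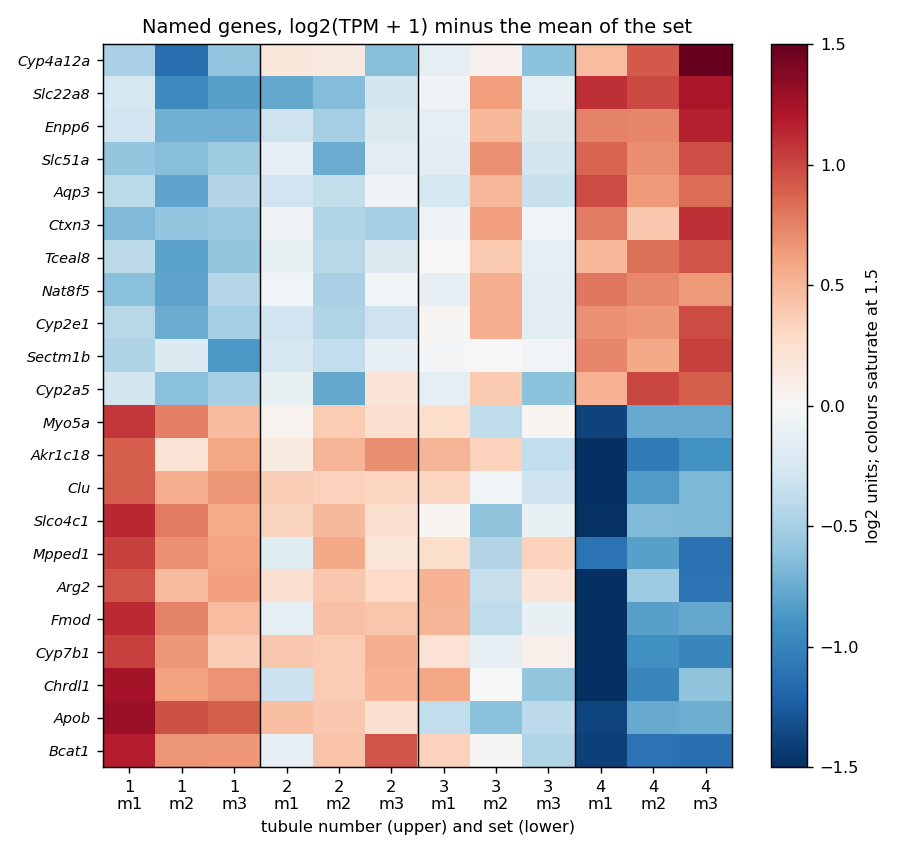
Heat map of 22 genes named for their differences between numbers 4 and 1, as log2(TPM + 1) minus the mean of the set, with the 12 libraries ordered by number. The 11 upper genes are red and the 11 lower genes blue in all 3 number 4 columns, and the m2 column of number 3 lies nearer number 4 than those of m1 and m3 for most of the upper genes.

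The segment lists separated by segment, but their members were chosen with earlier results of these data known. They include Slc22a8, Slc34a1 and Cyp7b1, described above, so the counts are descriptions and not a separate test. Of 8 S2 genes tested, 5 were higher and 0 lower in number 4, with a median log2 difference of 0.74 against -0.05 over all tested genes: Slc22a8, Cyp2e1, Slc34a1, Slc22a6 and Slc13a3, a dicarboxylate transporter. Of 20 S3 genes, 11 were lower and 1 higher, with a median of -0.43. They included Cyp7b1, Slc22a13, Slc22a19, Slc22a7 and, with smaller differences, Glul, glutamine synthetase, from 339 to 234 TPM (log2 difference -0.54, limma adjusted p = 0.00962) and Slc15a2, the peptide transporter PEPT2, from 331 to 223 TPM. Slc16a1, a monocarboxylate carrier placed in the S3 list, was higher, from 5.46 to 11.0 TPM. Of 7 S1 genes that passed the filter on low values, of 12 listed, 2 were higher: Slc2a2, the basolateral glucose carrier, from 42.3 to 69.7 TPM, and Slc4a4, below. The S2 count was 5 of 8 without m3_PTS2_3 and m1_PTS2_4, and the S3 count was then 5 of 20 lower. Without the set block these counts were 2 and 4, and the S1 count was 0. With the 6 libraries of numbers 1 and 4 alone, 2 S2 genes were higher, 0 S3 genes were lower and 0 S1 genes were higher. The S3 count was also 5 without m1_PTS2_1, 6 without m1_PTS2_4 or m2_PTS2_1, and 7 without m3_PTS2_1. The S1 count was 1 without m1_PTS2_4, m2_PTS2_1 or m3_PTS2_1 and without both m3_PTS2_3 and m1_PTS2_4, and 3 without m1_PTS2_1 or m1_PTS2_2.

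**Figure D4:**
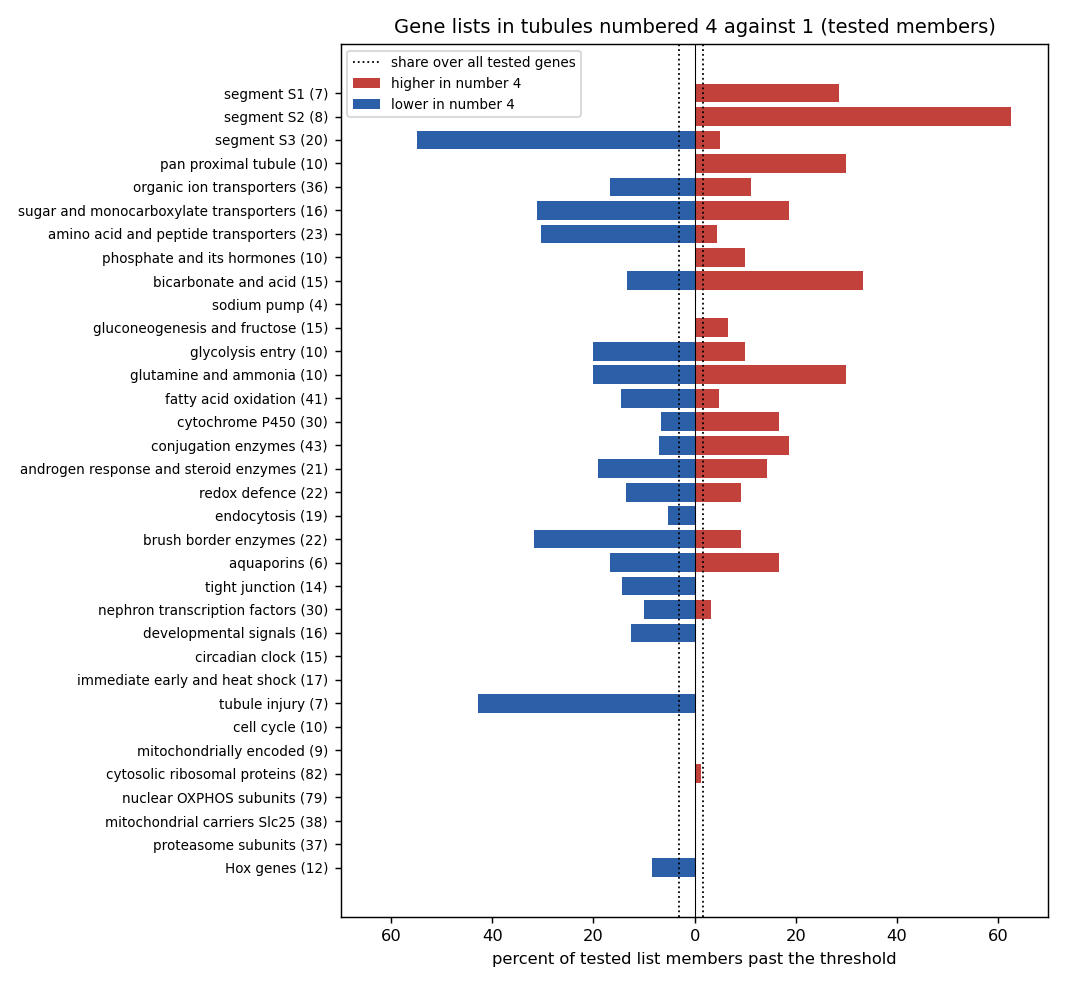
Percent of the tested members of each gene list that were higher (right, red) or lower (left, blue) in number 4, with the number of tested members after each name; dotted lines mark 1.69% and 3.07%, the shares over all tested genes. The S2 list extends furthest to the right (5 of 8) and the S3 list furthest to the left (11 of 20). The lists were chosen with earlier results of these data known.

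Organic ion transporters divided between the numbers. Of 36 tested, 4 were higher and 6 lower in number 4, and the median log2 difference was -0.03. Slc22a6, the basolateral exchanger OAT1 that drives secretion of drugs (mean 442 ± 173 TPM in number 1 and 894 ± 108 TPM in number 4, SD, n = 3), had a log2 difference of 1.07 (limma adjusted p = 0.00335). Slco1a6 went from 210 to 370.5 TPM, and Slc13a3, which brings in the dicarboxylates that OAT1 and OAT3 exchange, from 177 to 275 TPM. In contrast Slc22a7, the anion transporter OAT2, was at 1572 ± 142 TPM in number 1 and 776 ± 115 TPM in number 4 (SD, n = 3), a log2 difference of -1.02 (limma adjusted p = 0.00263). Slc22a13, the apical urate and nicotinate exchanger OAT10, went from 434 to 164 TPM, Slc22a19 from 547 to 209 TPM and Slc22a26 from 67.6 to 23.2 TPM. The libraries of numbers 1 and 4 did not overlap for any of the 10 genes. This adds little to the calls, since 443 of all 538 genes past the threshold did not overlap either. The counts were also 4 and 6 without m3_PTS2_3 and m1_PTS2_4. They were 1 and 3 without the set block, and 2 and 0 with the 6 libraries of numbers 1 and 4 alone. Cation transporters did not pass: Slc22a2 had a log2 difference of -0.25 and Slc47a1 0.01.

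Bicarbonate and acid genes were more often higher than lower in number 4. Of 15 tested, 5 were higher and 2 lower (median 0.16). Car4, the membrane carbonic anhydrase of the brush border, went from 414 ± 102 to 814 ± 122 TPM (SD, n = 3), a log2 difference of 0.99 (limma adjusted p = 0.0031). Cytosolic Car2 went from 35.6 to 80.9 TPM and membrane-bound Car14 from 20.3 to 46.4 TPM. Slc4a4, the basolateral sodium bicarbonate cotransporter, went from 84.8 to 137 TPM. The apical sodium-proton exchangers moved apart. Slc9a3 (NHE3) was higher, at 6.99, 4.85 and 5.78 TPM in number 1 and 13.3, 8.64 and 15.0 TPM in number 4 (log2 difference 0.93, limma adjusted p = 0.0227). Slc9a8 (NHE8) was far more abundant and lower, from 615 ± 102 to 206 ± 98.8 TPM (SD, n = 3), a log2 difference of -1.70 (limma adjusted p = 0.00174). Car5a, the mitochondrial carbonic anhydrase, also fell, from 29.4 to 12.3 TPM. Without m3_PTS2_3 and m1_PTS2_4 the counts were 2 higher and 2 lower. Without the set block both were 0 in limma. The counts were also 2 and 2 without m2_PTS2_1, and 3 and 2 without m1_PTS2_4 or m3_PTS2_1. The 4 sodium pump genes tested did not pass, and 1 had an unadjusted p under 0.05.

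Amino acid carriers were more often lower than higher. Of 23 amino acid and peptide transporters, 7 were lower and 1 higher, with a median of -0.30. Slc38a3, the glutamine transporter SNAT3, went from 87.4 ± 17.2 to 42.8 ± 9.52 TPM (SD, n = 3; log2 difference -1.02, limma adjusted p = 0.00256). Slc3a1, the partner subunit of Slc7a13, went from 1455 to 971 TPM, Slc6a13 from 361 to 229 TPM and Slc6a18 from 546 to 377 TPM. Slc43a2, a basolateral carrier of neutral amino acids, was higher, from 8.74 to 17.0 TPM. The lower count was 4 without m1_PTS2_1, m2_PTS2_1 or m2_PTS2_4, 3 without m1_PTS2_4 or m3_PTS2_1, and 2 without m3_PTS2_3 and m1_PTS2_4 together. Without the set block 1 was lower and 0 higher. Of 16 sugar and monocarboxylate transporters, 3 were higher and 5 lower, and the median was -0.06. The fructose carrier Slc2a5 fell from 164.5 to 98.2 TPM and the sodium-coupled Slc5a9 from 37.6 to 19.7 TPM, and Slc16a14 rose from 6.02 to 15.9 TPM. These counts were 1 and 2 without m1_PTS2_1, m1_PTS2_4 or m2_PTS2_1, and without m3_PTS2_3 and m1_PTS2_4 together, and 1 and 4 or 1 and 5 without m3_PTS2_1 or m3_PTS2_4, and 0 and 1 without the set block. Of 10 glutamine and ammonia genes, 3 transaminases (Gpt, Gpt2 and Got2) were higher and Slc38a3 and Glul lower.

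The list named brush border enzymes included some of the most abundant genes that differed. Where in the cell each listed protein sits was not tested, and Agt, described with them, is not an enzyme. Of 22 tested, 7 were lower and 2 higher, with a median of -0.21. Napsa, an aspartic protease, went from 9690 ± 1990 to 5132 ± 1520 TPM (SD, n = 3), a log2 difference of -0.94 (limma adjusted p = 0.00174). The meprin subunits fell together, Mep1b from 889 to 415 TPM and Mep1a from 1736 to 1257 TPM. Agt, the precursor of angiotensin, went from 233 to 111 TPM, and Mme (neprilysin), which cleaves angiotensin peptides, had a log2 difference of -0.95. Enpep, aminopeptidase A, which also cleaves angiotensin, was higher, from 42.7 to 73.8 TPM. The lower count was 3 without m1_PTS2_1, and 4 without m1_PTS2_4 or m2_PTS2_1, and without the last the higher count was 0. Without m3_PTS2_3 and m1_PTS2_4 together, 1 was higher and 3 lower, and without the set block 1 was higher and 0 lower. Of 19 endocytosis genes 1 passed (5.26%, near the 4.76% of all genes tested): Lrpap1, a chaperone of megalin (log2 difference -0.30). Its call was lost with median-of-ratios rescaling. At an unadjusted limma p under 0.05, 5 of the 19 were lower and 1 higher, against 16.2% of all tested genes in either direction. Lrp2, megalin, had a log2 difference of 0.03 and Cubn, cubilin, -0.35.

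Enzymes of drug metabolism were more often higher than lower in number 4. Of 30 cytochrome P450 genes, 5 were higher (Cyp4a12a, Cyp2e1, Cyp2a5, Cyp2j13 and Cyp4b1) and 2 lower (Cyp7b1 and Cyp51). Cyp4b1, the most abundant of them, went from 6841 ± 1362 to 11676 ± 2546 TPM (SD, n = 3; log2 difference 0.77, limma adjusted p = 0.00253). Of 43 conjugation enzymes, 8 were higher and 3 lower. The higher counts of these lists were 3 and 5 without m2_PTS2_1 or m2_PTS2_4, 3 and 6 without m3_PTS2_1, 4 and 5 without m1_PTS2_1, and 4 and 6 without m3_PTS2_3 and m1_PTS2_4. Without the set block they were 1 and 3, with 2 and 1 lower. Ugt2b38, a glucuronosyltransferase of a family with close copies, went from 1012 to 2134 TPM, and Gsta3, a glutathione transferase, went from 86.6 to 129 TPM. Gstm1, another glutathione transferase, ran the other way, from 2647 to 1803 TPM. Of 21 androgen response and steroid genes, 3 were higher and 4 lower, with Odc1, ornithine decarboxylase, from 613 to 1167 TPM and Hsd11b1, which regenerates corticosterone, from 784 to 428 TPM. The androgen-dependent Kap had a log2 difference of -0.12 and did not pass.

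Central metabolism was covered by lists of glucose, fat, redox and mitochondrial genes. Of 15 gluconeogenesis and fructose genes 1 passed the threshold (6.67%, near the 4.76% of all genes tested): G6pc, glucose-6-phosphatase, from 241 to 438 TPM. Pkm and Pfkp, glycolytic isoforms, fell from 36.2 to 12.6 TPM and from 34.4 to 10.7 TPM, while Ldhb went from 1314 to 1884 TPM. Of 41 fatty acid oxidation genes, 6 were lower and 2 higher, with Acadm, the medium-chain acyl-CoA dehydrogenase, from 2848 to 1705 TPM, peroxisomal Crot from 1216 to 749 TPM, and Acaa2 from 53.2 to 105 TPM. The lower count of that list was 2 without m1_PTS2_1 or m1_PTS2_4, 1 without m2_PTS2_1 and 0 without m3_PTS2_3 and m1_PTS2_4 together, and 0 of its genes passed in limma without the set block. Of 22 redox genes, Gclc, which makes the first step of glutathione synthesis, Gss and Gpx4 were lower and Gpx1 and Gpx3 higher. Each of these calls was lost without the set block. That of Gpx4 was also lost with mitochondrially encoded genes left out and with median-of-ratios rescaling. Quantile normalization lost Gpx4 and Gpx3. In limma, 0 of 79 nuclear OXPHOS subunits passed (7 had an unadjusted p under 0.05), and 0 of 38 mitochondrial Slc25 carriers (7 unadjusted). Of 37 proteasome subunits 0 passed (8 unadjusted, all of them higher in number 4), and of 82 cytosolic ribosomal proteins 1, Rpl3l. Over all tested genes, 16.2% had an unadjusted limma p under 0.05.

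The share past the threshold was 13.3% for nephron transcription factors, 12.5% for developmental signals, 14.3% for tight junction genes and 42.9% for tubule injury genes, all above the 4.76% of genes tested. Of 30 nephron transcription factors, Irx1, Irx2 and Cebpb were lower and Nr1h4, the bile acid receptor, higher. Irx2 went from 8.48 to 3.11 TPM and Irx1 from 3.67 to 1.21 TPM. Among 16 developmental signals Fgf1 fell from 272 to 156 TPM and Wnt5a from 6.99 to 3.0 TPM. Cldn3 and Tjp3, of 14 tight junction genes, fell from 43.1 to 16.3 TPM and from 6.95 to 2.84 TPM. Of 7 tubule injury genes tested, of 18 listed, Clu, Havcr1 and Fga were lower in number 4, with Havcr1 from 3.86 to 1.49 TPM. Without the set block the calls of Irx1, Irx2, Cebpb, Nr1h4, Fgf1, Wnt5a, Cldn3, Clu, Havcr1 and Fga were lost. Without m3_PTS2_3 and m1_PTS2_4 together, those of Irx1, Irx2, Cebpb, Wnt5a, Tjp3, Havcr1 and Fga were lost. Of 15 circadian clock genes 0 passed in limma (3 had an unadjusted p under 0.05). Of 17 immediate early and heat shock genes 0 passed (2 unadjusted), and of 10 cell cycle genes 0 (1 unadjusted). The unadjusted share over all tested genes was 16.2%.

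The defining markers of the thick ascending limb, endothelium, macrophages and podocytes were low at both numbers, while the lists for the thin descending limb and parietal epithelium were not. The 8 tested genes of the thick ascending limb and the 8 of endothelium gave 0 calls in limma, and 0 had an unadjusted p under 0.05. The 5 defining markers of the thick ascending limb summed to 7.87 to 10.8 TPM in number 1 and 4.75 to 55.8 TPM in number 4. The 4 of endothelium summed to 10.8 to 32.7 and 9.64 to 20.02 TPM, the 3 of macrophages to 1.44 to 3.71 and 2.08 to 4.62 TPM, and those of podocytes to at most 0.12 TPM in any tubule. Csf1r, listed for macrophages, was lower in number 4 (from 56.2 to 25.6 TPM), above its whole kidney mean of 21.1 TPM at both numbers. The 10 genes listed for the thin descending limb summed to 613 to 743 TPM in number 1 and 450 to 476 TPM in number 4, lower in each set, against 689 TPM in whole kidney. Most of this was Aqp1, a water channel that the proximal tubule also makes (mean 437 TPM in number 1, log2 difference -0.51, not past the threshold). Cryab, a small heat shock protein, was lower in number 4 (from 198 to 81.6 TPM, log2 difference -1.38, limma adjusted p = 0.00482), and Akr1b3, aldose reductase, was higher (from 51.9 to 69.0 TPM). Slc14a2, the urea transporter of that limb, was at 0.07 TPM or less in every tubule. The 4 genes listed for parietal epithelium summed to means of 115 and 86.0 TPM, against 92.4 TPM in whole kidney. The part of these cells in the differences, the lower S3 genes among them, was not tested.

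The tubules numbered 2 and 3 entered the estimate of the spread but not the difference of 4 and 1, so the direction from 2 to 3 is a separate measure of the same genes. Of the 191 genes higher in number 4, 182 (95.3%) were also higher in number 3 than in number 2 on average, 104 of them in all 3 sets (54.5%). Of the 347 lower genes, 316 (91.1%) were lower in number 3 than in 2, and 126 in all 3 sets (36.3%). Over all tested genes the sign was shared by 57.3%, and in all 3 sets by 15.2%. Among all tested genes with a positive difference of 4 and 1 these shares were 66% and 19.1%. Among those with a negative difference they were 52.2% and 12.8%. The difference of 3 and 2 was small: 0 genes passed in limma and 550 had an unadjusted p under 0.05 (4.87%). Those with the smallest p among genes of at least 5 TPM were Mgst1, Slc9a3, Exosc8, Tor4a and Inmt on the higher side and Apob, Mettl7a2, Gstm1, Zfp239 and Fga on the lower side. Inmt, a methyltransferase of indole amines, was at 2298, 1643 and 2622 TPM in number 2 and 3038, 2664 and 2768 TPM in number 3, a log2 difference of 0.39 (limma adjusted p = 0.922). In every set number 3 was the higher one, and the same gene passed between 4 and 1 with a log2 difference of 0.79. Exosc8 and Tor4a did not differ between 4 and 1, with log2 differences of 0.09 and 0.27.

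The means of 120 of the 191 higher genes (62.8%) and of 270 of the 347 lower genes (77.8%) ran in the order 1, 2, 3, 4, against 11.2% of all genes, an order whose ends the choice of genes fixes. Relative to number 1, the median log2 difference of the higher genes was 0.10 in number 2, 0.30 in number 3 and 0.74 in number 4, and that of the lower genes -0.25, -0.45 and -0.79. These values share the number 1 libraries with the choice of genes and so restate it in part. The step from 2 to 3, which shares no library with it, had a median of 0.20 for the higher, -0.18 for the lower and 0.02 for all tested genes. The steps differed between sets. In set m2 the higher genes had reached 0.48 by number 3, against 0.20 in both m1 and m3. In a linear fit over the number, 508 genes passed (4.5%), 176 rising (1.56%) and 332 falling (2.94%), and 449 of the 538 genes were among them. The steepest among the named genes were Slc22a8, at 0.60 log2 units per number, and Apob, at -0.68. Acnat2, an acyltransferase named by this fit, was at 45.9, 30.1 and 10.7 TPM in number 1 and 123, 95.9 and 34.0 TPM in number 4, and its slope was 0.50 (limma adjusted p = 0.00153). It also passed between 4 and 1, with a log2 difference of 1.54 (limma adjusted p = 0.00183). Its libraries overlapped between the numbers, since set m3 was low throughout. Between 4 and 2, which share the number 4 libraries with the main contrast, 370 genes passed (3.27%), 207 higher (1.83%) and 163 lower (1.44%). Between 2 and 1, 3 and 1, and 4 and 3, 0 passed in limma. At an unadjusted limma p under 0.05 these gave 2391 (21.2%), 2344 (20.7%) and 1265 genes (11.2%). The contrast of 4 and 1 gave 1832 (16.2%) by that measure, fewer than 2 against 1 or 3 against 1.

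**Figure D5:**
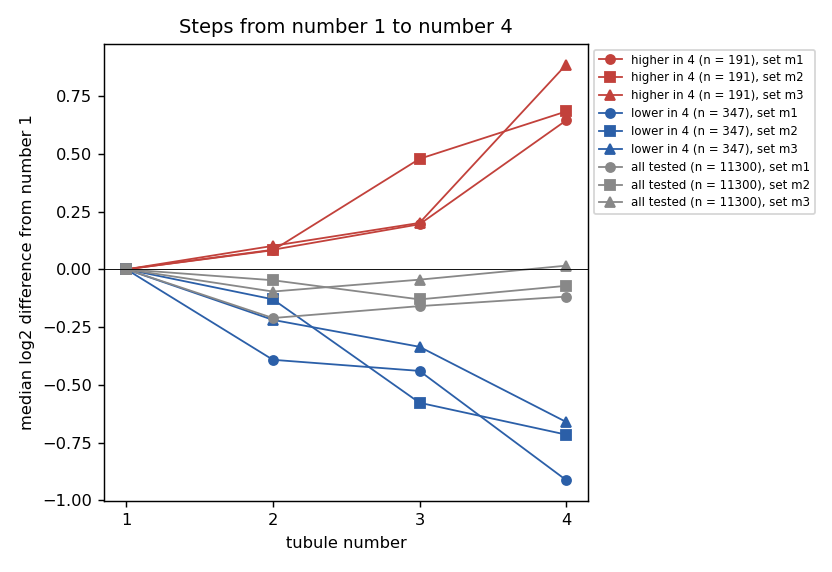
Median log2 difference from number 1 (vertical axis) at each tubule number, for the 191 genes higher in 4 (red), the 347 lower in 4 (blue) and all 11300 tested genes (grey), with 1 line per set. The end points follow from how the genes were chosen; the middle points, from 0.08 to 0.48 for the higher and from -0.13 to -0.58 for the lower genes, share the number 1 libraries with that choice and follow from it in part.

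Whole kidney gave another view that the contrast did not use. Its mean was above that of numbers 2 and 3 for 138 of the 191 higher genes (72.3%) and for 88 of the 347 lower genes (25.4%), against 71.3% of all tested genes. The median log2 difference of whole kidney from those tubules was 0.55 for the higher, -0.50 for the lower and 0.26 for all genes. So the genes lower in number 4 were mostly ones more abundant in these tubules than in whole kidney, as for Slc22a7, at 333 TPM in whole kidney, and Napsa, at 2743 TPM.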

How the data were processed

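Gene expression was measured by RNA-Seq in 12 single microdissected PTS2 tubules and 3 whole kidneys. The authors deposited 1 table of TPM values with 47069 genes. The submitters' processing notes name STAR 2.5.1b, RSEM 1.2.31 and the build GRCm38.p5, without saying what each did. TPM were checked to sum to a common total per library and keep no depth. Of the gene IDs, 46574 matched GENCODE M21 (GRCm38), which gave the gene coordinates; promoters came from RefSeq (GRCm38.p6), and the table of promoters gave entries for 8398 of the 11300 genes tested.

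Libraries were grouped by the number and the set (m1, m2, m3) in the description labels. Differences were fitted with limma 3.58.1 in R 4.3.3 (lmFit, eBayes with a trend) on log2(TPM + 1), over the 12 PTS2 libraries, for genes averaging 1 TPM or more. The number was the factor and the set a fixed block, with 6 residual degrees of freedom, Benjamini-Hochberg adjustment and a threshold of 0.05. The pairing comes from the shared prefix in the labels. Deviations of the 18 same-set pairs correlated at 0.136 to 0.295, and those of the 36 other pairs at -0.207 to 0.0399. In simulated data, limma recovered 149 of 200 genes with a true log2 difference of 1 between numbers 4 and 1 (5 false calls), and 191 of 200 at 2 (10 false calls), among 11300 genes. The simulated noise was independent for each gene and library, and the planted change was linear over the number. Noise shared by the genes of a library was not simulated, so these false calls may be too few for the real data.

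Named genes were up to 12 per direction with the largest log2 difference among those past the threshold, of the same sign in 3 sets, without overlap, and with a mean of at least 5 TPM, apart from predicted genes. Some of these are not reported here. For the trend and for 3 against 2, up to 5 per direction were taken, and where too few passed, the 5 with the smallest unadjusted p. Genes of 44 written lists and 6 symbol patterns were also described. The members and lists were chosen with earlier results of these data known. Library measures were tested by exact permutation in Python 3.11.15 (numpy 2.4.6, pandas 2.3.3); figures used matplotlib 3.10.9. Alternatives were another pseudocount, filter, scaling, block or variance model, mitochondrial genes left out, and each set and library left out.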

Additional observations from a re-analysis of the deposited data

How the results depend on the processing

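The 538 genes of number 4 against 1 kept their sign in the 27 alternatives wherever they had a value, which choosing them from the same libraries partly fixes, but the count moved. It was 175 with low genes kept (no filter), 67 with no replicate block, 299 with the set as a random effect and 99 with 6 libraries and the block; 1 to 90 without a set, and 192 to 748 without a library. The trend count (508) was 254, 163 and 285 under the first 3 of these settings, 0 to 228 without a set and 233 to 765 without a library. For 4 against 2 (370) it was 15, 30 and 173, then 215 without the variance trend, 3 to 7 without a set and 121 to 448 without a library. Without m3_PTS2_3 and m1_PTS2_4 together, added after the data were seen, the counts were 156, 231 and 78, and 1, 1 and 2 for 3 against 2, 4 against 3 and 3 against 1. For 4 against 3 (0) a mean of at least 10 TPM gave 38, quantile normalization 3 and robust variances 1, with 0 to 47 when a set or library was left out. For 3 against 1 (0) these were 3 at 10 TPM, 1 with robust variances and 0 to 7. For 3 against 2 leaving out gave 0 to 3, and for 2 against 1, 0 to 430, the latter without m2_PTS2_2. Of the 107 list genes past the threshold, 17 passed with no replicate block and 22 with the 6 libraries of numbers 1 and 4 alone. Without set m3 0 of them passed, and 52 without both doubted libraries. Depth is unknown, so its limits cannot be given.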

Other observations

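Further gene families were picked after their values were seen, so their counts are descriptions. Of 26 tested genes of sterol synthesis and uptake, 9 were lower in number 4 and 0 higher, with a median log2 difference of -0.40. They included Sqle, from 164 to 74.5 TPM, Msmo1, from 80.3 to 38.3 TPM, Cyp51, from 463 to 249 TPM, and Mvk, Pmvk, Fdps and Fdft1. Apolipoproteins gave 3 lower of 10, with Apoa4 from 45.9 to 14.4 TPM (log2 difference -1.71, limma adjusted p = 0.00174) and Apoa1 from 4.14 to 1.90 TPM beside Apob. All 5 tested genes of the Serpina family, secreted protease inhibitors, were lower. Serpina1f went from 770 to 286 TPM and Serpina1d from 686 to 234 TPM, and as near copies the Serpina1 genes can share reads.

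Other families were higher in number 4. Of 8 Nat8 acetyltransferases, 5 were higher and 0 lower, with Nat8f1 from 1089 to 1658 TPM and Nat8f2 from 25.5 to 46.5 TPM; these too are close copies. Of 8 carboxylesterases, 3 were higher (Ces1d, Ces1e and Ces1g). Asl and Ass1, neighbouring steps of arginine synthesis, were higher at 123 against 83.1 TPM and 208 against 131 TPM, while Arg2, which breaks arginine down, was lower. Hpd, the step of tyrosine breakdown after transamination, went from 132 to 190 TPM. Bckdhb, a subunit of branched-chain ketoacid dehydrogenase, rose from 25.7 to 53.6 TPM, where Bcat1 fell.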
